A study of Homo sapiens with 2 samples.

Results

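The locus described here is the 1.4-Mb stretch of chromosome 3 around SATB1, positions 17750000 to 19150000 on hg19, profiled by ATAC-seq, an assay that maps open chromatin by where Tn5 transposase can cut it and add adapters. Its members are the deposited peaks whose summit lies in that stretch, 23 of 25189 peaks in Jurkat and 20 of 24603 in RPMI-8402 on chromosomes 1 to 22, X and Y. The stretch was chosen from the same peak lists, because a 200-kb bin within it had more Jurkat than RPMI-8402 peaks, so peak numbers and overlaps are given as descriptions. Jurkat and RPMI-8402 are established human cell lines derived from T-ALL, an acute leukaemia of immature T cells. Both were grown in the same medium, RPMI-1640 with tetracycline-free serum and antibiotics, and no treatment other than the transposase is named in the labels. Each line was represented by 1 library, so the values have no replicate error and the lines were compared without a test. Intervals are at the 95% level and account for counting alone. They would be too narrow if PCR copies were among the fragments, or if both ends of a fragment were counted. Whether the lines have peaks at the defining genes of T cells was not analysed here, as no hg19 annotation was used.

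SATB1 encodes a nuclear protein that binds AT-rich DNA and holds chromatin loops together. In thymocytes it is abundant and is needed for the T-cell programme of gene expression, including the choice between the CD4 and CD8 lineages. Accessible sites far from a gene's start, in its introns or in the gene-poor DNA around it, are often enhancers, though accessibility alone does not show which gene a site acts on. SATB1 lies at positions 18386879 to 18487080 on the minus strand, so its 5′ end is at the higher coordinate. The lower flank (636.9 kb) is therefore downstream of the gene and the upper flank (662.9 kb) upstream. In RefSeq on GRCh38.p14, SATB1 is the only protein-coding gene between TBC1D5, which encodes a GTPase-activating protein of endosomal sorting, and KCNH8, which encodes a voltage-gated potassium channel. The other 12 of the 13 entries between them are 8 long noncoding RNAs and 4 pseudogenes. Among the noncoding RNAs are SATB1-AS1, which starts beside SATB1 on the opposite strand, and BALR6, downstream of SATB1.

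RefSeq lists 4 transcription starts for SATB1. Promoter sequences are shown because peaks of either or both lines lay at the distances of some of these starts and not of others. Distances between starts were measured within GRCh38.p14 and distances of peaks within hg19, and no position was converted between the builds. Each sequence runs 5′ to 3′ along the transcript's strand, from 250 bases before the start to 50 after it, on chromosome 3 of GRCh38.p14, with CG dinucleotides in capitals. Shown are the outermost SATB1 start, the start of SATB1-AS1 355 bp inside it, and the starts 6856 and 20253 bp inside it.
SATB1, outermost start, chr3:18445543-18445842, minus strand: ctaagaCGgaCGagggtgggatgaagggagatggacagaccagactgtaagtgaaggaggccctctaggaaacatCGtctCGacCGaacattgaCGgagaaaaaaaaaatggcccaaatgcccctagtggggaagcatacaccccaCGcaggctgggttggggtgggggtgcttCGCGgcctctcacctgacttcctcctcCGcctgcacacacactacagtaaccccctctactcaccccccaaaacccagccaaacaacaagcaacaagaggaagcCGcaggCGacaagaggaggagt
SATB1-AS1, chr3:18444987-18445286, plus strand: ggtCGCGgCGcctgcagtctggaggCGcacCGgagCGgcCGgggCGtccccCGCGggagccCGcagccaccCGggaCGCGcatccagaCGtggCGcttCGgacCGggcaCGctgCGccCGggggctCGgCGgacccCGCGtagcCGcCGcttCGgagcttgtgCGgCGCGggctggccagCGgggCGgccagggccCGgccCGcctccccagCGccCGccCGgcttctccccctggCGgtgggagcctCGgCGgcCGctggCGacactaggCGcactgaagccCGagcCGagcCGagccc
SATB1, start 6856 bp inside, chr3:18438687-18438986, minus strand: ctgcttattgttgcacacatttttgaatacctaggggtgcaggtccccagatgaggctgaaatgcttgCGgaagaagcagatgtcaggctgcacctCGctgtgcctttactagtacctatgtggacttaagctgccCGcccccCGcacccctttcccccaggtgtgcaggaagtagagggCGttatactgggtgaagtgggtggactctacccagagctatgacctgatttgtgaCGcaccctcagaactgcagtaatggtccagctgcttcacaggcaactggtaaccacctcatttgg
SATB1, start 20253 bp inside, chr3:18425290-18425589, minus strand: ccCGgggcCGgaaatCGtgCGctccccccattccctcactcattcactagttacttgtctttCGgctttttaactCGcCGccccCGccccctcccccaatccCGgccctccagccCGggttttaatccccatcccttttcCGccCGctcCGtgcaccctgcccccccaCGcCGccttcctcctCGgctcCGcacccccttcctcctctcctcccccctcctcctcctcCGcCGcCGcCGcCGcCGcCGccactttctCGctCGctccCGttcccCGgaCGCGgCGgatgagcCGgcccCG

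These promoters differed in base composition. The SATB1-AS1 promoter had 81.0% G and C with 47 CG dinucleotides, and the SATB1 start 20253 bp inside the gene had 70.7% and 33. The outermost SATB1 start had 56.7% and 12, and the start 6856 bp inside had 53.7% and 6. The medians of all 35116 RefSeq promoters were 58.7% and 14. The start 6856 bp inside held CAGATG 2 times, CAGCTG (both E-boxes) and CAGGAAG (an ETS core), and the remaining SATB1 start, 1474 bp inside and not printed, held TGTGGT (a RUNX core). Both strands were searched, and no 2 of these matches overlap. Of all promoters, 14.7% held CAGATG, 17.9% CAGCTG, 12.7% CAGGAAG and 13.1% TGTGGT. The other 3 promoters held none of these, nor the GATA motif AGATAA (10.3% of all promoters), the TCF/LEF motif CTTTGAA (4.43%) or the AP-1 motif TGACTCA (4.95%). A CTCF core of 11 letters, held by 0.103% of all promoters, was in none of the 5. A match is a run of letters and not a measured binding site.

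Both lines had an accessible site over the 5′ end of SATB1. Summit pileup is taken here as the number of fragments over the highest base of a peak, as the counted unit is not given in the sources used. In Jurkat the peak at positions 18486443 to 18487392 had a summit pileup of 77 (95% Poisson interval 60.8 to 96.2). In RPMI-8402 the pileup was 125 (104 to 149), in a peak at positions 18485885 to 18487209. The summits lay 439 bp inside the gene in Jurkat and 458 bp inside it in RPMI-8402, 19 bp apart. The Jurkat peak reached from 312 bp outside the gene to 637 bp inside it, and the RPMI-8402 peak from 129 bp outside to 1195 bp inside. The starts of SATB1-AS1, at 355 bp, and of the outermost SATB1 transcript thus fell within these ranges of distance in both lines, and the start at 1474 bp fell outside both. The Jurkat peak was 950.0 bp wide and the RPMI-8402 peak 1325 bp.

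After centring on the median of all 16494 one-to-one peak pairs of the genome, the Jurkat over RPMI-8402 pileup ratio at the 5′ end was 0.548 (95% exact conditional interval 0.407 to 0.733). It was the only one of the 10 pairs in the locus whose interval lay below 1. Scaled by the genome-wide background of each library instead, it was 0.759 (0.564 to 1.02), an interval that holds 1. In its own list the Jurkat peak stood above 73.5% of all peaks in pileup, and the RPMI-8402 peak above 91.2%.

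A further site lay about 20 kb inside the gene. Jurkat had 2 peaks there, at positions 18466234 to 18466615 with a pileup of 28 and at positions 18467032 to 18467720 with a pileup of 68, and RPMI-8402 had 1 peak across both, at positions 18466174 to 18467575 with a pileup of 89. In distance from the 5′ end, the Jurkat peaks spanned 20846 to 20465 bp and 20048 to 19360 bp, and the RPMI-8402 peak 20906 to 19505 bp. The CG-rich SATB1 start at 20253 bp therefore fell, by distance, between the Jurkat peaks and within the RPMI-8402 peak. The strongest Jurkat pileup over the RPMI-8402 pileup gave a centred ratio of 0.679 (0.488 to 0.942), and 0.941 (0.676 to 1.31) when scaled by the genome-wide backgrounds. Both lines thus had their highest pileups of the gene body at these 2 sites, the 5′ end and the site about 20 kb in. Neither line had a peak from 1195 to 19360 bp inside the gene, a range that takes in the start at 6856 bp.

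Deeper in the gene each line had 1 peak of its own, and these did not overlap. The Jurkat peak at positions 18414447 to 18414747 reached a pileup of 42 (30.3 to 56.8), with an 8.06-fold enrichment over its local background in the authors' list. The RPMI-8402 peak at positions 18411009 to 18411650 reached 21 (13 to 32.1), with a 5.91-fold enrichment. The peaks were 2796 bp apart, and neither line had another peak between the site about 20 kb in and the gene's 3′ end.

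**Figure D1:**
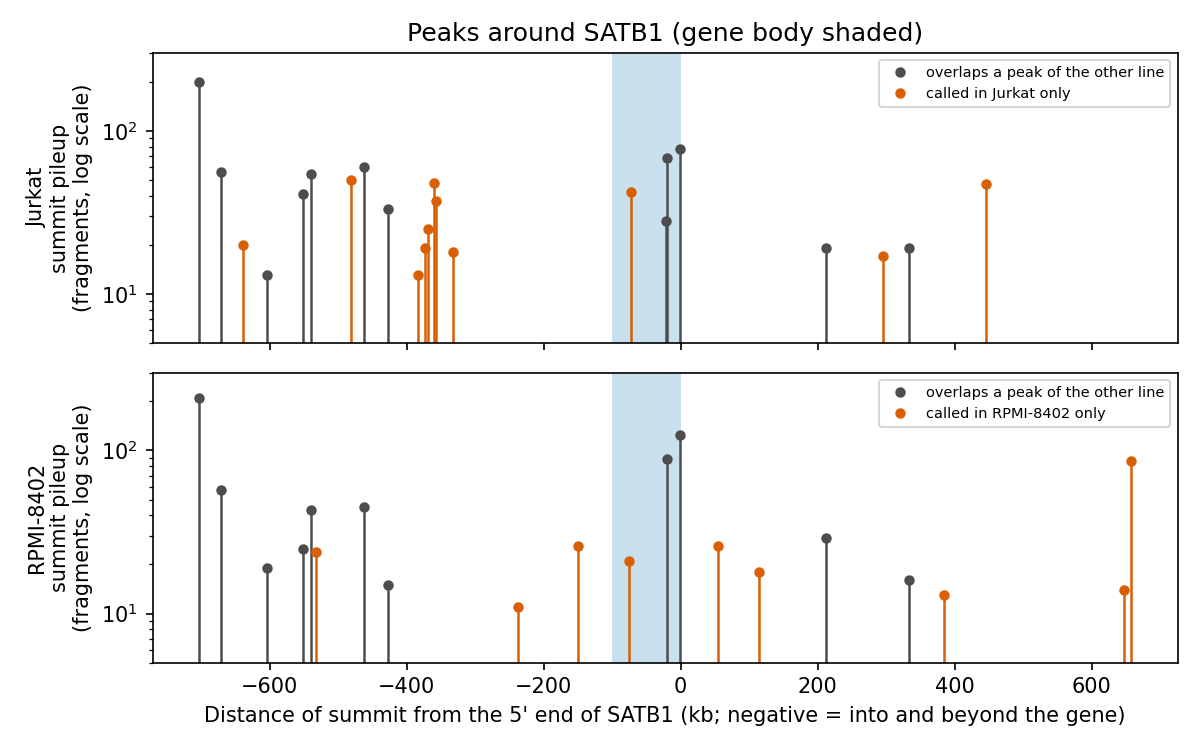
Summit pileup (fragments, log scale) of each peak against its distance from the 5′ end of SATB1 in kb, with Jurkat above and RPMI-8402 below, the gene body shaded, and peaks called in 1 line marked in orange. The 6 orange Jurkat peaks from 383 to 332 kb downstream of the 5′ end have no counterpart in the RPMI-8402 panel, and the highest orange RPMI-8402 peak, 657 kb upstream, has none in the Jurkat panel.

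The downstream flank held 15 Jurkat and 10 RPMI-8402 peaks, the gene 4 Jurkat and 3 RPMI-8402 peaks, and the upstream flank 4 Jurkat and 7 RPMI-8402 peaks. Per Mb there were 23.6 Jurkat and 15.7 RPMI-8402 peaks downstream, 39.9 Jurkat and 29.9 RPMI-8402 peaks in the gene, and 6.03 Jurkat and 10.6 RPMI-8402 peaks upstream. The Jurkat surplus downstream came wholly from the bin that chose the locus, positions 18000000 to 18200000. Without that bin the downstream flank held 6 Jurkat and 8 RPMI-8402 peaks and the whole locus 14 Jurkat and 18 RPMI-8402 peaks, so that the direction turned in both counts. The upstream numbers do not involve the bin, and they are small and without a replicate.

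**Figure D2:**
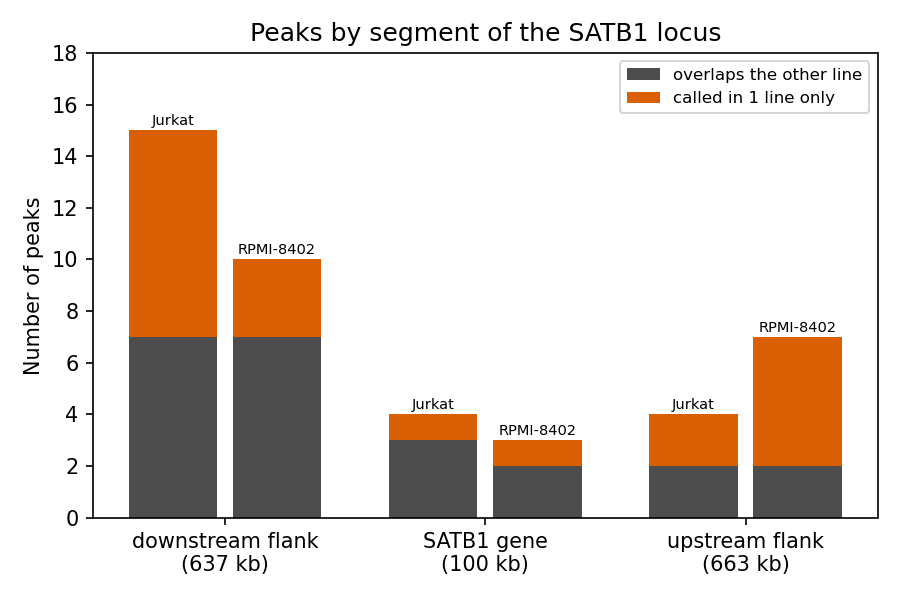
Number of peaks in the downstream flank, the SATB1 gene and the upstream flank, with the Jurkat bar left of the RPMI-8402 bar and peaks called in 1 line stacked in orange. The part shared is 7 peaks in both downstream bars and 2 in both upstream bars, so the bars differ there in their orange parts, with 8 Jurkat and 3 RPMI-8402 peaks downstream and 2 Jurkat and 5 RPMI-8402 peaks upstream. Of the 8 orange Jurkat peaks downstream, 7 lie in the bin that chose the locus, and without it 1 Jurkat and 3 RPMI-8402 peaks are orange there.

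The flanks are gene-poor, but the stretch as a whole, with the bin that chose it included, was not poor in peaks. Of the 2076 windows of 1.4 Mb that held a peak in either line, 87.2% had fewer than 23 Jurkat peaks and 85.7% fewer than 20 RPMI-8402 peaks, with a median of 10 in each line. The locus held 16.4 Jurkat and 14.3 RPMI-8402 peaks per Mb, against 12.3 Jurkat and 11 RPMI-8402 peaks per Mb in the 5 Mb on either side. Without the bin, which is 200 kb long, 14 Jurkat and 18 RPMI-8402 peaks remain in the locus. The Jurkat density of that remainder is below the 12.3 per Mb of the neighbourhood, and the RPMI-8402 density is above its 11. Between neighbouring peaks the median gap in the locus was 32.9 kb in Jurkat and 54.5 kb in RPMI-8402. Over the genome it was 46.0 kb in Jurkat and 53.1 kb in RPMI-8402. The window shares and these gaps were not computed without the bin, so nothing is read from the Jurkat ones. The longest stretches without a peak between 2 members of a line lay at different places. In Jurkat it ran for 258.9 kb, from position 18155521 to position 18414447, across the gene's 3′ end. In RPMI-8402 it ran for 262.6 kb, from position 18871823 to position 19134410, in the upstream flank. Stretches that run past a border were not counted. In Jurkat such a stretch led from the last member, with its summit at position 18933289, to a peak with its summit at position 19188341. It overlaps the RPMI-8402 stretch, so much of that part of the upstream flank was without a peak in both lines. At the borders, the outermost members were shared peaks at 17.78 Mb, with pileups of 199 in Jurkat and 209 in RPMI-8402, and line-only peaks above the gene with pileups of 47 in Jurkat and 86 in RPMI-8402. The nearest peaks below the stretch had pileups of 11 in Jurkat and 16 in RPMI-8402. Above it both lists had a shared peak, with a pileup of 112 in Jurkat, 38.3 kb past the border, and 210.0 in RPMI-8402, 38.8 kb past it.

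About as many members were called in 1 line as in both. Of the Jurkat peaks, 12 of 23 overlapped a RPMI-8402 peak by at least 1 bp, and 11 (47.8%) did not, against 32.6% of all Jurkat peaks. Of the RPMI-8402 peaks, 11 of 20 overlapped a Jurkat peak and 9 (45.0%) did not, against 31.9% of all RPMI-8402 peaks. On chromosome 3 outside the locus, 32.5% of Jurkat and 41.2% of RPMI-8402 peaks were unshared, the latter near the value of the locus. Within 5 Mb on either side the shares were 39.0% in Jurkat and 32.7% in RPMI-8402. The Jurkat count was set in part by the choice of the locus: outside the bin that chose it, 4 of 14 Jurkat peaks (28.6%) and 9 of 18 RPMI-8402 peaks (50%) did not overlap a peak of the other line. Neighbouring peaks are not independent draws, so no interval is given for these shares.

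The unshared Jurkat members included several peaks of middling strength, and those of RPMI-8402 included 1 strong peak. Among the 12 Jurkat members at or above the list's median pileup of 37, 7 (58.3%) were shared, against 91.8% of such peaks over the genome. The 5 unshared ones had pileups of 50, 48, 47, 42 and 37. Among the 7 RPMI-8402 members at or above that list's median of 38, 6 (85.7%) were shared, against 90.7% over the genome. The 1 unshared peak there had a pileup of 86. Below the medians, 5 of 11 Jurkat members (45.5%) were shared, against 42.8% over the genome, and 5 of 13 RPMI-8402 members (38.5%), against 45.5% over the genome. The locus was chosen for its Jurkat-only peaks, so the Jurkat values describe that choice. Outside the bin that chose it, 6 of 8 Jurkat members at or above the median were shared.

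The bin that led to the choice, positions 18000000 to 18200000, held 9 Jurkat and 2 RPMI-8402 peaks. A surplus of at least 7 Jurkat peaks was found in 9 of 10936 bins with a peak, or 0.0823%, and nothing is read from it here, since it was the criterion. Both RPMI-8402 peaks of the bin overlapped Jurkat peaks, so the whole difference came from 7 Jurkat peaks with no counterpart. The adjoining bins showed no such surplus. The bin up to position 18000000 held 5 peaks of each line, and the bin from position 18200000 to position 18400000 held 0 Jurkat and 2 RPMI-8402 peaks.

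The first of the 7 Jurkat-only peaks, at positions 18005456 to 18006095, reached a pileup of 50 (37.1 to 65.9) with an 11.1-fold enrichment, and RPMI-8402 had no peak within 18541 bp. It spanned 481624 to 480985 bp from the SATB1 5′ end on hg19. RefSeq's BALR6, a noncoding RNA named for its description in B-cell acute lymphoblastic leukaemia, starts 483040 bp from that end on GRCh38.p14. By distance the BALR6 start thus fell outside the peak. This peak was the strongest in the bin by the authors' −log10 q, at 36.4. Had the RPMI-8402 background there been the same multiple of its genome-wide level, a pileup of 16 would have passed the weakest p-value of that list. The Jurkat pileup, brought to the RPMI-8402 scale by the median of the one-to-one pairs, was 44.4.

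The other 6 followed one another within 52.0 kb, from position 18103571 to position 18155521, with no RPMI-8402 peak between them. Their summits lay from 383.4 to 331.7 kb downstream of the SATB1 5′ end. In order of position their pileups were 13, 19, 25, 48, 37 and 18 fragments, and their enrichments 4.73-, 4.89-, 5.43-, 5.83-, 4.69- and 5.48-fold. The run was highest at the fourth and the fifth peak, positions 18127285 to 18127862 and 18129463 to 18129749, and lower on both sides. RPMI-8402 had no peak within 43060 bp of the first or within 94621 bp of the last. Joining peaks across gaps of up to 12500 bp put the first 5 into 1 cluster of 26.2 kb. Of the 20154 Jurkat clusters made in this way, single peaks included, 0.476% held 5 or more peaks. This cluster lies inside the bin that chose the locus, so its size and its absence from RPMI-8402 restate that choice and nothing is read from them. The largest RPMI-8402 cluster of the locus held 3 peaks, at positions 17936121 to 17954338, and 2 of those were shared with Jurkat. Of the 20556 RPMI-8402 clusters, 3.34% held 3 or more peaks.

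The local background under the run was highest at its strongest peaks. The local background is the level that the peak caller took for the surroundings of a summit, given here as a multiple of the lowest level in the list, 1.59 fragments in Jurkat and 1.96 in RPMI-8402. At the fourth and the fifth peak of the run it was 4.66 and 4.47 times the genome-wide level, close to 5.21 at the SATB1 5′ end and above the Jurkat median of 2.48 over the genome. At the first and the last peak it was 1.23 and 1.55 times. The deposited enrichments of 4.69- to 5.83-fold therefore rest on a high denominator in the middle of the run. Among the Jurkat members the local background tended to rise with pileup, from 1.01 at a pileup of 13 to 9.01 at 199. This did not hold at each peak, as the one with a pileup of 50 had 2.26. The local background may thus hold fragments of the peaks themselves, and it is not a separate measure of the surroundings. At the background of the fourth peak, taken to the RPMI-8402 level, a pileup of 25 would have been called, against a Jurkat pileup of 42.7 on the RPMI-8402 scale. At the first peak these values were 11 and 11.6, so close that a missing call there says little under this scaling. Carried over by the genome-wide backgrounds, 1.23 times as high in RPMI-8402, the pileup would lie further above 11. With the pair median as the scale, all 11 Jurkat-only and all 12 shared Jurkat members pass this check of a would-be call. So do all 9 RPMI-8402-only and all 11 shared RPMI-8402 members. The check therefore does not set the peaks of the run apart, and nothing is read from it.

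**Figure D3:**
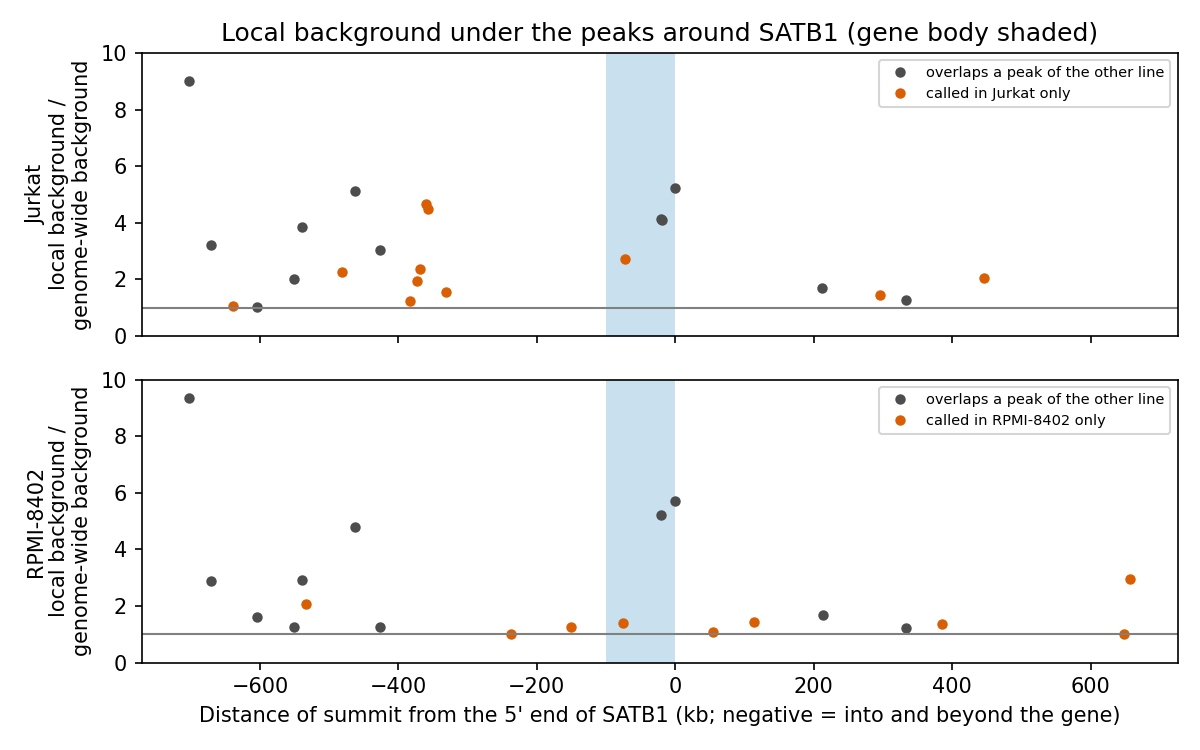
Local background under each summit as a multiple of the library's genome-wide background, against the distance from the 5′ end of SATB1 in kb, Jurkat above and RPMI-8402 below. The 2 highest orange Jurkat points, 4.66 and 4.47, belong to the Jurkat-only run, while the RPMI-8402-only points stay between 1 and 2.95.

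The shared sites nearest to the run lay below it. The closest, at positions 18060059 to 18060528 in Jurkat, had pileups of 33 in Jurkat and 15 in RPMI-8402, a centred ratio of 1.96 (1.03 to 3.87). It was the only pair of the locus whose interval lay above 1. The pair at positions 18024544 to 18025174 in Jurkat had pileups of 60 in Jurkat and 45 in RPMI-8402, a ratio of 1.19 (0.792 to 1.79). Next below it, the pairs whose Jurkat peaks start at positions 17947220 and 17936090 had pileups of 54 and 41 in Jurkat and of 43 and 25 in RPMI-8402. Their ratios were 1.12 (0.734 to 1.71) and 1.46 (0.866 to 2.50), with intervals that hold 1.

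Of the 10 one-to-one pairs, 5 had a ratio above 1 and 5 below it. None of the centred ratios was 2-fold or more in either direction, where 4.97% of the genome's pairs were at least 2-fold higher in Jurkat and 9.21% at least 2-fold higher in RPMI-8402. The median centred log2 ratio was -0.06, with a range of -0.87 to 0.97, and that of the 73 pairs within 5 Mb on either side was -0.01 (25th to 75th percentile -0.46 to 0.32). On chromosome 3 outside the locus, the 1058 pairs had a median of -0.16 (25th to 75th percentile -0.61 to 0.22). Scaling by the genome-wide backgrounds moves all pairs by 0.47 on the log2 scale, and 7 of the 10 pairs then lie above 1, 4 of them with their whole interval, all 4 from 551 to 427 kb downstream of the SATB1 5′ end. No interval then lies below 1. Under that scaling 2 of the 10 pairs were at least 2-fold higher in Jurkat, at ratios of 2.71 and 2.02 for the Jurkat peaks starting at positions 18060059 and 17936090, and 0 pairs were in RPMI-8402. Of the genome's pairs, 18.6% were then as far apart towards Jurkat and 3.29% towards RPMI-8402. Unscaled, the first of these 2 pairs alone passed 2-fold, at a ratio of 2.2. Summed over the pairs, the pileups were 571 in Jurkat and 583 in RPMI-8402. Whether the lines carry different numbers of copies of the locus was not tested, and the ratios of its neighbourhood stand above for comparison.

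**Figure D4:**
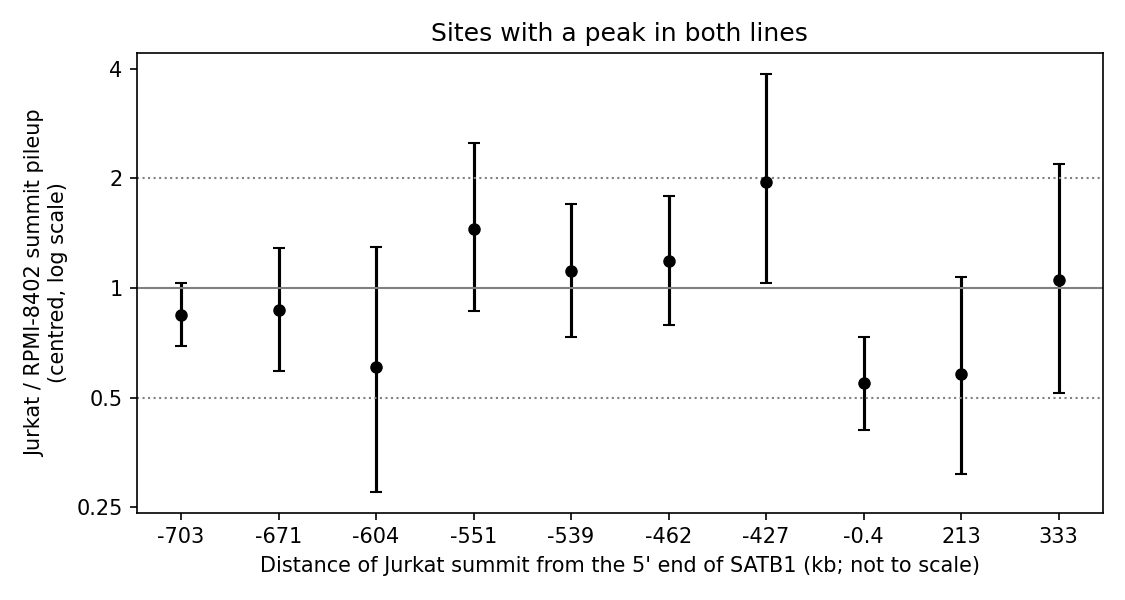
Centred Jurkat over RPMI-8402 ratio of summit pileups (log scale) at the 10 sites with 1 peak in each line, ordered by distance from the 5′ end of SATB1, with 95% exact conditional intervals. The 5′ end of SATB1, at 0.548, is the only point whose interval lies below 1, and the point 427 kb downstream, at 1.96, the only one whose interval lies above it.

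The strongest member in both lines was not at SATB1 but at the lower border of the downstream flank. The peak at positions 17783548 to 17784746 in Jurkat reached a pileup of 199 (172 to 229), and its RPMI-8402 partner reached 209 (182 to 239), a centred ratio of 0.846 (0.693 to 1.03). It exceeded 96.1% of all Jurkat and 98.4% of all RPMI-8402 peaks in pileup. Its summits lay 702.8 kb from the SATB1 5′ end in Jurkat and 702.9 kb in RPMI-8402, where one of the TBC1D5 starts in RefSeq lies 702.96 kb from it on GRCh38.p14. The next shared peak towards SATB1, starting at position 17815890 in Jurkat, had pileups of 56 in Jurkat and 57 in RPMI-8402, a ratio of 0.873 (0.593 to 1.29). The weakest shared site of the flank, starting at position 17882682 in Jurkat, had pileups of 13 in Jurkat and 19 in RPMI-8402, a ratio of 0.608 (0.276 to 1.30). The remaining Jurkat-only peak of this flank, at positions 17847833 to 17848110, had a pileup of 20.

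The 3 RPMI-8402-only peaks of the downstream flank were weaker than the strongest Jurkat-only ones. At positions 18336508 to 18337293, 150.3 kb from the SATB1 5′ end, the pileup was 26 (17.0 to 38.1) and the enrichment 7.77-fold. The closest Jurkat peak was 77153 bp from it. The peak at positions 17953915 to 17954338 had a pileup of 24 and lay 6042 bp from a Jurkat peak. The peak at positions 18250175 to 18250693 had a pileup of 11, near the weakest pileup of 10 in the whole list. The first and the last of these fall in the 258.9 kb that were without a Jurkat peak, as does the RPMI-8402 peak in the gene.

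The upstream flank held fewer peaks than the downstream flank, 4 against 15 in Jurkat and 7 against 10 in RPMI-8402. Without the bin that chose the locus, the downstream numbers were 6 in Jurkat and 8 in RPMI-8402, so the differences were small. Upstream peaks were also weaker than downstream ones by median pileup, bin included, at 19 against 37 in Jurkat and 18 against 25.5 in RPMI-8402. In each line 1 upstream site was strong. In RPMI-8402 the peak at positions 19144054 to 19144873, 657.4 kb upstream of the SATB1 5′ end, reached a pileup of 86 (68.8 to 106) with a 12.9-fold enrichment, the highest enrichment of the locus in that line. Jurkat had no peak within 43151 bp, and at the same multiple of background a pileup of 16 would have been called in Jurkat, against 96.8 on the Jurkat scale. Carried over by the genome-wide backgrounds instead, the pileup would be lower than the 86 measured, though still above 16. At the RPMI-8402-only peaks with pileups of 13 and 11, pileups of 11 and 9 would have been called in Jurkat. The genome-wide backgrounds put both of these peaks below those values. The strong peak lies in the upstream flank. Its summit, in the peak starting at position 19144054, was 5.57 kb inside the upper border. A weaker RPMI-8402-only peak, with a pileup of 14, started at position 19134410.

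In Jurkat the peak at positions 18933138 to 18933738, 446.2 kb upstream, reached a pileup of 47 (34.5 to 62.5) with an 11.3-fold enrichment. No RPMI-8402 peak lay within 61314 bp, and a pileup of 15 would have been called there against 41.8 on the RPMI-8402 scale. The other Jurkat-only peak of the flank, starting at position 18782345, had a pileup of 17. These 2 strong line-only sites were thus at different places, 1 in each line.

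Nearer to the gene, RPMI-8402 had 2 peaks of its own and Jurkat had none. At positions 18540823 to 18541200, 53.9 kb upstream of the 5′ end, the RPMI-8402 pileup was 26 (17.0 to 38.1) with an 8.70-fold enrichment. At positions 18601074 to 18601465, 114.2 kb upstream, it was 18. Jurkat had no peak for 212.1 kb above the 5′ end, up to position 18699503. There both lines had a peak, with pileups of 19 in Jurkat and 29 in RPMI-8402, a ratio of 0.582 (0.309 to 1.07). The second shared site of the flank, starting at position 18819805 in Jurkat, had pileups of 19 in Jurkat and 16 in RPMI-8402, a ratio of 1.06 (0.514 to 2.19). The last RPMI-8402-only peak, starting at position 18871470, had a pileup of 13.

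In width and strength the shared and line-only members differed in the same direction in both lines. Shared Jurkat members had a median pileup of 47.5 and a median width of 550.5 bp, and Jurkat-only members a pileup of 25 and a width of 390.0 bp. Shared RPMI-8402 members had a median pileup of 43 and a width of 610.0 bp, and RPMI-8402-only members a pileup of 21 and a width of 452 bp. Most members were narrower than the medians of the whole lists, 611 bp in Jurkat and 694 bp in RPMI-8402, namely 16 of 23 Jurkat and 13 of 20 RPMI-8402 peaks. Width and pileup both enter the call of a peak, so these values describe the members and are not separate evidence of a difference between classes.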

How the data were processed

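ATAC-seq peak lists of 1 Jurkat and 1 RPMI-8402 library were used. The submitters' processing notes name hg19, MACS2 2.1.1.2016030, SAMtools, Bowtie2 and Picard, with their roles and parameters not given in the sources used here. The deposited columns used are the position and summit offset of each peak, the fold enrichment (a ratio to the local background), and −log10 of the p-value and of the q-value. Peaks were called per library, and the score deposited by the authors was not used.

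The locus, its members and the promoters and motifs listed were chosen with earlier results of these data known. Named were the peaks at the SATB1 5′ end, the 5 highest by −log10 q in each segment and line, all peaks of the bin at positions 18000000 to 18200000, and the strongest line-only peaks. The remaining members are given as well.

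Pileup and local background were solved from the deposited fold and p-value, from the way MACS2 is known to work: 1 is added to pileup and background before the fold is taken, and p is a Poisson tail. The solved pileup was whole, within 0.01, in 100% of peaks of both lists. The solving and overlap steps were tested on simulated data. The depth of each library is unknown here. The lowest pileup called was 9 in Jurkat and 10 in RPMI-8402. Ratios are Jurkat over RPMI-8402, centred on the median of all one-to-one pairs. A pileup was brought to the scale of the other line by that median. The background of a would-be call was carried over by the ratio of the genome-wide backgrounds. These scalings run in opposite directions. The work was done with scipy 1.17.1, pandas 2.3.3, numpy 2.4.6 and matplotlib 3.10.9 in Python 3.11.15. Promoter sequences and gene names are from RefSeq, GRCh38.p14, in which all 5 genes looked up were found. Alternatives are given in the closing section.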

Additional observations from a re-analysis of the deposited data

How the results depend on the processing

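Of 54 alternative values, 44 stayed within a set range and 10 moved. The range was 1.5 times the count, the exact interval of the share, or, for the median log2 ratio, 0.169 on either side. That last width is the counting interval of the ratio of summed pileups and not of a median. Some values could not move: widening the SATB1 segment cannot change the locus counts, nor leaving out the bin the gene and upstream counts. The share intervals are wide and treat neighbouring peaks as independent, so the tally does not measure robustness. With −log10 q of at least 10, RPMI-8402 had 12 peaks in the locus, 6 in the downstream flank and 3 in the upstream flank, and Jurkat had 2 in the upstream flank. The higher threshold removes peaks by its construction. The share of shared members ranged from 34.8 to 56.3% in Jurkat and from 40.0 to 66.7% in RPMI-8402 over the overlap and threshold settings. The median log2 pileup ratio of the pairs, -0.06 when centred, was 0.41 when scaled by the genome-wide background and 0.11 unscaled, so its sign depends on the scaling. These scalings shift all pairs alike, by 0.471 and 0.170 from the centred values. Both shifts exceed 0.169, so these 2 values had to count as moved whatever the locus held. For the 7 pairs left at the higher threshold the centred median was -0.23, of the same sign as the main value. The surplus of Jurkat peaks in the bin at positions 18000000 to 18200000 was 0 when the bin was moved by 100 kb down, with 5 peaks in each line, and 5 when moved up. An alternative chosen after seeing the data left out that bin, and Jurkat then had 14 peaks in the locus and 6 in the downstream flank. No paired analysis was possible because neither line has a second library, and for the same reason none could be left out. Sites with pileups near 9 or 10 are at the limit of what could be called.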
